A study of Homo sapiens with 5 samples.

Results

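The UBE2 genes encode ubiquitin-conjugating enzymes (E2). The set taken here is every autosomal protein-coding gene of the GENCODE annotation, release 44 lifted to GRCh37, whose symbol begins with UBE2, and it holds 35 of 19229 autosomal protein-coding genes. PHF8 binding was mapped in SKMEL-147 cells, an established line of human melanoma, by sequencing chromatin fragments that an antibody against PHF8 pulled down (ChIP-seq), and the question addressed here is where PHF8 sits at these genes. Of the 5 samples, all from the same line, 2 are input libraries (A and B), which have no peak list of their own here, and 3 are ChIP replicates (A, B1 and B2). There is 1 group only, so conditions cannot be compared, and the labels do not say whether the replicates came from separate cultures. They also do not say which input served which replicate. With 2 inputs for 3 replicates, lists may share an input, so the 3 values may not be fully independent. A gene was called bound when a peak came within 1 kb of a transcription start site (TSS) of any of its transcripts in all 3 replicates. Where 3 values follow each other below, they belong to A, B1 and B2 in this order.

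Ubiquitin is attached to proteins in a relay. An activating enzyme (E1) charges ubiquitin, an E2 carries it on a cysteine, and a ligase (E3) brings the E2 to its substrate, so that the E2 largely sets which kind of ubiquitin chain is built. Some members of the family carry the ubiquitin-like modifiers SUMO, NEDD8 or ISG15 in place of ubiquitin. PHF8 is a Jumonji enzyme that strips silencing methyl groups from histones, and its PHD finger docks on a methyl mark of active promoters.

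The lists held 21506 peaks in A, 20882 in B1 and 20120 in B2. The fold enrichment is the ratio of ChIP to background fragments at a summit, each with 1 added. Its median over all peaks was 18.9 in A and 11.8 in both B replicates, so levels were compared within a list only. The number of fragments at a summit, recovered from the fold enrichment and the p-value, had medians of 54, 39 and 40, and the lowest of any peak was 8, 8 and 10.

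PHF8 was found at the promoters of 33 of the 35 UBE2 genes, or 94.3%, in all 3 replicates. The same 33 genes carried a peak in each replicate taken alone. The exceptions were UBE2QL1, named for its likeness to the UBE2Q enzymes, and UBE2U. Among all autosomal protein-coding genes the share was 61.0%, or 11730 genes. Base composition differed between the list and the background. All 35 UBE2 genes had a CpG-island-like TSS, that is, the 250 bp to each side of a TSS had a GC share of no less than 0.5 and a CpG ratio (observed over expected) of no less than 0.6. The bound share was 80.0% among the 14031 genes with such a TSS and 9.72% among the 5198 genes without one.

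**Figure D1:**
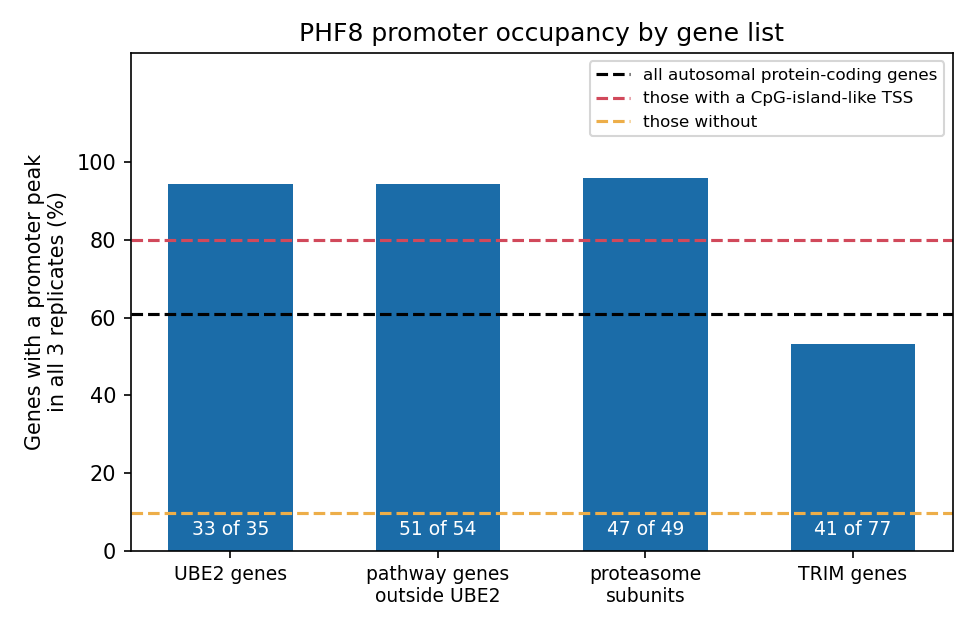
Share of genes with a PHF8 promoter peak in all 3 replicates (y axis, percent) for 4 gene lists (bars, with the number of genes written in each), beside the share over all autosomal protein-coding genes and over those with and without a CpG-island-like TSS (dashed lines). The UBE2 genes, at 94.3%, lie near the proteasome subunits and the other pathway genes and above the TRIM genes, at 53.2%.

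The sequences just upstream of bound and unbound starts of UBE2D2 and of UBE2E3 are shown because they differ in CpG content. Each is the 100 bases before the outermost TSS of a start, free of annotated exons, read 5′ to 3′ on the strand of the gene from GRCh37, with every CpG in capitals. UBE2D2, which encodes one of the general-purpose E2 enzymes, has a bound start preceded by chr5:138940652-138940751 on the plus strand, with 12 CpGs. The outermost start of its gene record lies 34736 bp upstream, is preceded by chr5:138905916-138906015 with 5 CpGs, and had no peak in all 3 replicates. UBE2E3, an E2 of the same general kind, has a bound start preceded by chr2:181845000-181845099 on the plus strand, with 14 CpGs. Its unbound start 13125 bp upstream is preceded by chr2:181831875-181831974 with 1 CpG. At UBE2L3 the difference ran the other way, with 4 CpGs before the bound start and 7 before the unbound outermost start. The latter stretch overlaps an annotated exon, and neither is printed here.
UBE2D2, bound start: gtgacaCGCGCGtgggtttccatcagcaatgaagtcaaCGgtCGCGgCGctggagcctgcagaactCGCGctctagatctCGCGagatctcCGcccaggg
UBE2D2, start without a peak: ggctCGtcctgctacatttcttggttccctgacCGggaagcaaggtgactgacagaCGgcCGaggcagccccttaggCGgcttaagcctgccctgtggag
UBE2E3, bound start: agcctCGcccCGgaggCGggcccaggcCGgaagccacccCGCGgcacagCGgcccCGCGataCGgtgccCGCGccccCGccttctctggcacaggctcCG
UBE2E3, start without a peak: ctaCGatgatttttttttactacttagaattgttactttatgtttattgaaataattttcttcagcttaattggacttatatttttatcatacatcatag

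The 2 unbound genes are shown for contrast. The highest GC content and CpG ratio at a TSS were 57.3% and 0.69 for UBE2U, below those of every bound member, and 73.7% and 0.92 for UBE2QL1, within their range. The stretch before the only TSS of UBE2QL1, chr5:6448872-6448971 on the plus strand, holds 18 CpGs and is 92.0% G or C. The stretch before the CpG-island-like start of UBE2U, chr1:64669206-64669305 on the plus strand, holds 6 CpGs. The stretch before UBE2S (chr19:55919157-55919256, minus strand, 15 CpGs), which is bound, is set beside them.
UBE2QL1, not bound: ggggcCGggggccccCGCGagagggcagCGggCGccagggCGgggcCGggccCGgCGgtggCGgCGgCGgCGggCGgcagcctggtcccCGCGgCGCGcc
UBE2U, not bound: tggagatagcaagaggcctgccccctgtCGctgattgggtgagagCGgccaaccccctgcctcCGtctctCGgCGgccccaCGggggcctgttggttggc
UBE2S, bound: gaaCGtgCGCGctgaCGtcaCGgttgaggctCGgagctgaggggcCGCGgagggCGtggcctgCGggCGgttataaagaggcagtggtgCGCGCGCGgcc

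The 35 genes have 107 TSS clusters, where starts of 1 gene further than 500 bp apart were counted as separate clusters. PHF8 was present in all 3 replicates at 40 of them, or 37.4%, beside 23.5% of the clusters of all autosomal protein-coding genes. Among CpG-island-like clusters 37 of 41 were bound (90.2%, against 73.9% for all genes), and among the other 66 clusters 3 were bound (4.55%, against 5.63%). The GC content of bound clusters had a median of 73.4% (range 43.9 to 84.0), and that of the 67 unbound clusters a median of 42.1% (27.3 to 77.8). The medians of the CpG ratio were 0.91 and 0.3. Bound clusters were the CpG-rich ones for the most part, and the ranges overlapped.

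**Figure D2:**
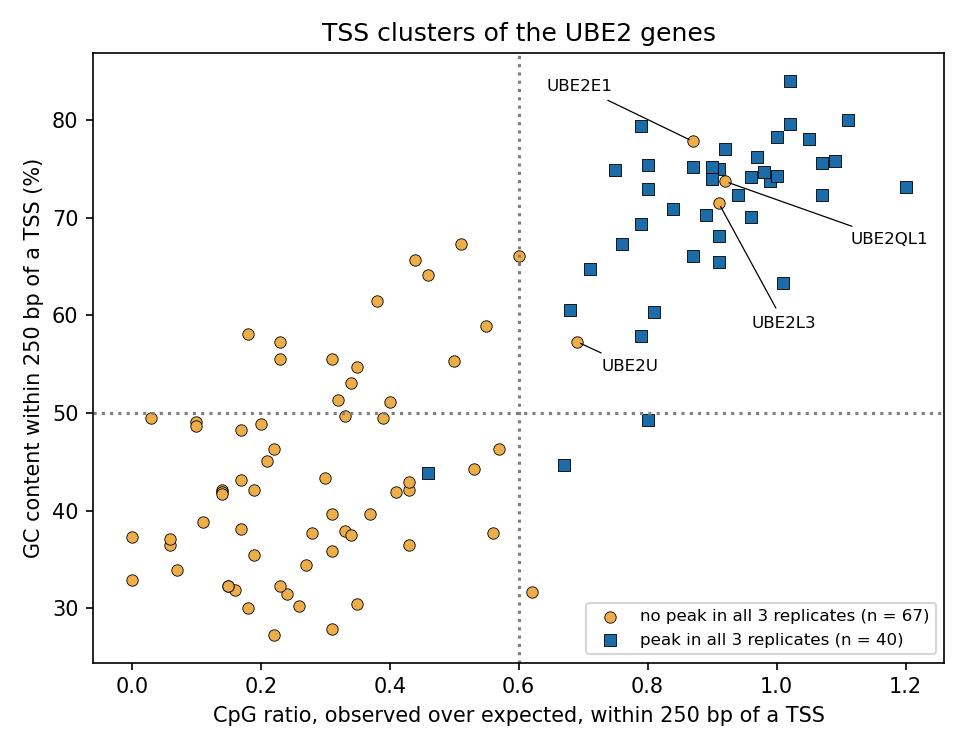
GC content (y axis, percent) against the observed over expected CpG ratio (x axis), each the highest value within 250 bp of a TSS of the cluster, for the 107 TSS clusters of the UBE2 genes, with squares for the 40 clusters bound in all 3 replicates and circles for the others; dotted lines mark the limits of a CpG-island-like start. Of the 41 clusters called CpG-island-like, the 4 without a peak in all 3 replicates are named.

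The exceptions at single starts were few. CpG-island-like clusters without a peak in all 3 replicates numbered 4. They were the single cluster of UBE2QL1, 1 cluster each of UBE2U and UBE2E1, and the outermost cluster of UBE2L3. The last had a GC content of 71.5% and a CpG ratio of 0.91. The bound start of UBE2L3 lies 18100 bp downstream of that cluster. The 3 bound clusters outside the definition belonged to UBE2D3, UBE2E3 and UBE2V1. For UBE2D3 and UBE2E3 the peak counted there was that of a neighbouring cluster of the same gene. Of the 28 genes with at least 2 clusters, 21 had a peak in all 3 replicates at exactly 1 cluster. The matching share over all genes with several clusters is not given here, so this count is a description only. The cluster that opens the gene record was bound in 30 of 35 genes (85.7%, against 54.9% of all autosomal protein-coding genes).

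UBE2D3 and UBE2V1 were the members whose bound starts differed in their strongest peak. At UBE2D3 the peak at the outermost cluster had a fold enrichment of 62.3, 33.1 and 31.2, and the peak at an internal cluster of 17 TSSs had 42.5, 25.2 and 20.7. At UBE2V1 the order was the other way round. An internal cluster of 11 TSSs had a fold enrichment of 49.1, 28.5 and 33.8, and the outermost cluster had 12.9, 9.32 and 7.03. The stronger of the starts was the same in all 3 replicates for both genes.

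No peak was close to the unbound genes. The nearest peak to a TSS of UBE2QL1 lay 69765 bp away in A, 69922 bp in B1 and 69913 bp in B2. The nearest to UBE2U lay 248920, 248904 and 248902 bp away. Both genes therefore had no listed peak anywhere near a start, and a level below the calling threshold cannot be given from a list of peaks.

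Levels at the 33 bound genes were clear of the calling threshold. The fold enrichment of the strongest promoter peak ran from 18.6 to 62.3 in A, from 10.6 to 37.0 in B1 and from 9.22 to 37.3 in B2, on 30 to 167 fragments at the summit. The smallest −log10 q-value among them was 22.9. The 33 genes drew on 32 distinct peaks, because UBE2F and UBE2F-SCLY, a readthrough gene that starts beside it, share one.

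The median level of the UBE2 genes stood above that of other bound genes in each replicate. Their median fold enrichment was 38.6, 22.9 and 21.8, against 33.9, 19.6 and 18.7 over 11697 other bound genes. On the log2 scale the difference of medians was 0.19, 0.22 and 0.23, or 0.21 ± 0.02 (SD, n = 3), which is 1.16-fold. It was positive in 3 of 3 replicates and larger than their spread, and it was 0.09 when only peaks with a fold enrichment above 10 were kept. The exact two-sided sign-flip permutation test gave p = 0.25, the smallest value that 3 replicates allow.

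Proteasome subunits, which degrade ubiquitinated proteins, and TRIM proteins, a family that includes many RING ligases, were taken as the families most alike in function. Proteasome genes were bound at 47 of 49 (95.9%) and TRIM genes at 41 of 77 (53.2%), beside 61.0% of all autosomal protein-coding genes. Among the TRIM genes with a CpG-island-like TSS 35 of 42 (83.3%) were bound, beside 80.0% of all genes with such a TSS. The UBE2 median minus that of the bound proteasome genes was -0.16, -0.18 and -0.12 on the log2 scale, a mean difference of -0.15 ± 0.03 (SD, n = 3). It was above that of the bound TRIM genes by 0.11, 0.28 and 0.44, a mean of 0.28 ± 0.17. The difference from the TRIM genes turned to -0.06 when only peaks with a fold enrichment above 10 were kept. Both comparisons had p = 0.25 in the exact sign-flip permutation test, also after adjustment over the pair.

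To place single genes, the strongest promoter peak of each was given a percentile among all bound autosomal protein-coding genes of the same replicate. The median UBE2 gene stood at percentile 62.0 in A, 63.2 in B1 and 63.8 in B2. By the mean over replicates, 22 of 33 genes were above 50, 11 were above 75 and 3 were below 25. All 3 replicates were above 50 for 19 genes and below 50 for 7. The matching shares over all bound genes are not given here, so these counts are descriptions only. The order was gradual, and of the 32 gaps between neighbours in it only that between UBE2G1 and UBE2H (8.0) exceeded its spread over replicates.

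**Figure D3:**
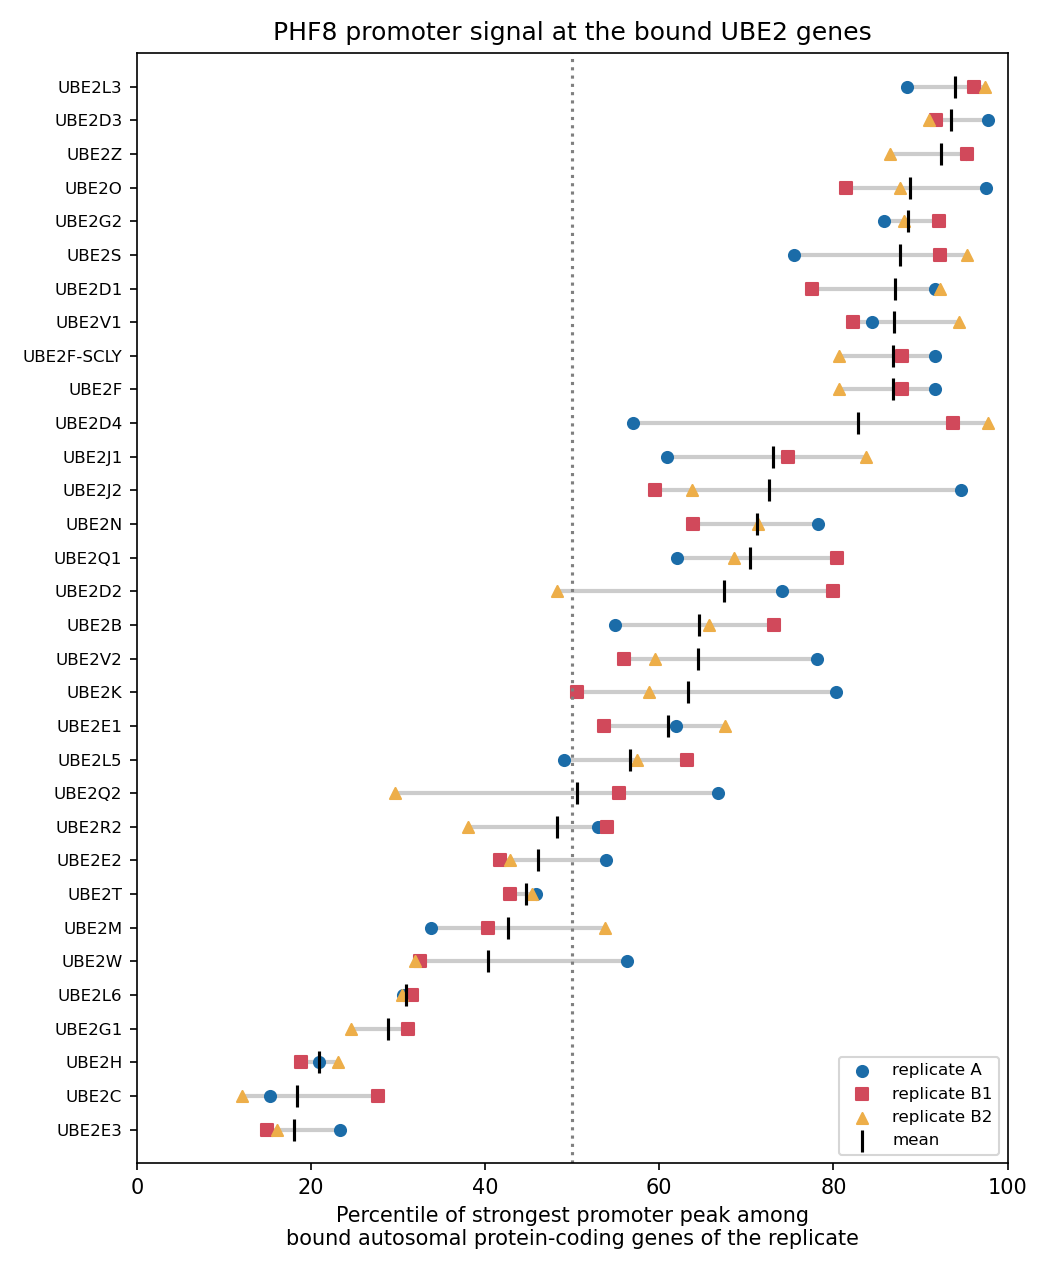
Percentile of the strongest PHF8 promoter peak among bound autosomal protein-coding genes of the same replicate (x axis) for 32 of the bound UBE2 genes (y axis, ordered by mean), with a symbol per replicate, a black bar for the mean and a grey line for the range. Means run from 94.0 for UBE2L3 to 18.1 for UBE2E3, and UBE2D4 and UBE2J2 are among the genes whose replicates lie far apart.

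The 5 genes with the highest mean percentile by fold enrichment serve different branches of the system. By fragments the highest were UBE2S (91.3), UBE2D4 (91.1), UBE2V1 (89.9), UBE2L3 (88.1) and UBE2D3 (85.7). UBE2L3, which works with HECT and RBR ligases such as parkin, stood first (94.0 ± 4.9, SD, n = 3). Its peak, at chr22:21921710-21922622 in A, had a fold enrichment of 51.8, 37.0 and 36.8, on 132, 113 and 117 fragments. UBE2D3, a broad partner of RING ligases, followed at 93.5 ± 3.7 with a peak at chr4:103789616-103790899 and 159, 96 and 94 fragments. UBE2Z, which is charged by UBA6 and can carry the modifier FAT10, stood at 92.4 ± 5.1 with a fold enrichment of 58.2, 36.2 and 28.9.

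UBE2O and UBE2G2 completed the upper end by fold enrichment. UBE2O, a large enzyme that acts as E2 and E3 in one, had a mean percentile of 88.8 ± 8.1, a fold enrichment of 61.9, 28.2 and 29.4, and a summit in a coding exon in all 3 replicates. UBE2G2, an E2 of protein degradation at the endoplasmic reticulum, had 88.6 ± 3.2 and a fold enrichment of 49.9, 33.4 and 29.6. The percentiles of these 5 genes overlapped across replicates.

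The 5 lowest genes were bound in every replicate as well. UBE2E3 stood last (18.1 ± 4.5), with a fold enrichment of 23.0, 10.6 and 10.5 on 58, 30 and 31 fragments. UBE2C, the mitotic E2 that starts chains on substrates of the anaphase-promoting complex, had 18.4 ± 8.3 and a fold enrichment of 18.6, 14.2 and 9.22. UBE2H, the E2 of the CTLH ligase complex, had 20.9 ± 2.1 and a fold enrichment of 21.8, 11.9 and 12.5. UBE2G1, a builder of lysine-48 chains, and UBE2L6, the E2 for the interferon-induced modifier ISG15, had means of 28.9 ± 3.8 and 30.9 ± 0.6. The highest percentile that any of these 5 reached in a replicate was below the lowest of the first 5. Both groups were picked by these same percentiles, so this gap is not a separate result.

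The general-purpose E2 enzymes spanned the whole range. All 8 of UBE2D1 to UBE2D4, UBE2E1 to UBE2E3 and UBE2W, which marks the amino terminus of proteins, were bound, with mean percentiles from 18.1 to 93.5 and a median of 64.2. Within the UBE2D genes, whose proteins are close in sequence, UBE2D2 was below UBE2D3 in all 3 replicates, with a log2 difference of -0.52 ± 0.26. That order rests on the peak at the outermost start of UBE2D3, whose summit lay nearer to a TSS of CISD2. The peak at the internal cluster of 17 TSSs of UBE2D3 had 42.5, 25.2 and 20.7. These values were below those of UBE2D2 in A and B1 and above in B2. The fold enrichment of UBE2D1 was 54.4, 26.8 and 32.2, that of UBE2D2 was 43.6, 27.6 and 18.2, and that of UBE2D4 was 36.6, 34.5 and 37.3. No other pair of UBE2D genes kept its order over the replicates by fold enrichment. By fragments, UBE2D1 was above UBE2D2, and UBE2D4 was above both, in all 3 replicates, with log2 differences of 0.25 ± 0.19 for UBE2D1 minus UBE2D2, -0.21 ± 0.11 for UBE2D1 minus UBE2D4 and -0.46 ± 0.08 for UBE2D2 minus UBE2D4.

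Within the UBE2E genes the order was the same in all 3 replicates. UBE2E1 had a fold enrichment of 38.5, 20.5 and 22.8, UBE2E2 of 35.4, 17.5 and 17.1, and UBE2E3 the values given above. UBE2E1 exceeded UBE2E3 by 0.94 ± 0.19 on the log2 scale (1.92-fold) and UBE2E2 exceeded it by 0.68 ± 0.05. The difference between UBE2E1 and UBE2E2 was smaller, at 0.26 ± 0.15. UBE2W had a fold enrichment of 36.2, 15.4 and 14.5 and a mean percentile of 40.3.

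The enzymes that build lysine-48 or lysine-11 chains were also far apart. The pair that serves the anaphase-promoting complex showed the widest mean difference among the related enzymes compared, though not the widest in B1 taken alone. UBE2S, which extends chains on this ligase, had a fold enrichment of 44.3, 33.5 and 34.6, on 140, 118 and 127 fragments, against 58, 50 and 41 fragments at UBE2C. UBE2C was below UBE2S by a log2 difference of -1.46 ± 0.39 (2.76-fold), in 3 of 3 replicates. ANAPC11, the RING subunit of that ligase, had a fold enrichment of 26.1, 26.6 and 20.7.

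UBE2G1 and UBE2G2 are close relatives and differed by a log2 difference of -1.09 ± 0.16, with 26.5, 15.0 and 12.8 against the higher values of UBE2G2 in every replicate. UBE2K, which builds lysine-48 chains without needing a ligase in the test tube, had 46.8, 19.8 and 20.7. UBE2R2, the E2 of cullin ligases, had 35.1, 20.6 and 15.9, and CDC34, its close relative under another symbol, had 53.8, 33.1 and 29.9. The 6 genes of this role group had a median mean percentile of 55.8.

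The lysine-63 and endoplasmic-reticulum groups had mean percentiles of 64.5 to 88.6. UBE2N, the E2 that builds lysine-63 chains, had a fold enrichment of 45.7, 23.1 and 23.8. Its partners UBE2V1 and UBE2V2, which lack the catalytic cysteine, had 49.1, 28.5 and 33.8 and 45.6, 21.1 and 20.9. UBE2V1 exceeded UBE2V2 by 0.41 ± 0.29 on the log2 scale and UBE2N was below UBE2V1 with a difference of -0.30 ± 0.20, in all 3 replicates. Both directions rest on the internal start of UBE2V1, since with 1 TSS per gene its mean percentile was 8.2, against 71.4 for UBE2N and 64.7 for UBE2V2. UBE2N and UBE2V2 differed by 0.11 ± 0.10, and with fragments in place of fold enrichment by -0.23 ± 0.30. The membrane-anchored UBE2J1 (38.1, 25.9 and 27.6) and UBE2J2 (57.7, 21.9 and 21.8) of the endoplasmic reticulum did not keep their order, with a log2 difference of -0.01 ± 0.52.

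The enzymes for ubiquitin-like modifiers had a median mean percentile of 42.6 with a range of 30.9 to 92.4. The NEDD8 enzymes differed from each other. UBE2F, which serves the cullin CUL5, had 54.4, 31.0 and 26.5, and UBE2M, which serves most other cullins, had 27.6, 17.2 and 19.4. UBE2M was below UBE2F by a log2 difference of -0.76 ± 0.28, in 3 of 3 replicates. By fragments the difference was -0.28, -0.87 and -0.43, a mean of -0.53 ± 0.31. In A the background at UBE2M was 3.35 fragments, against 1.66 at UBE2F. In B1 the summit counted for UBE2M lay 489 bp from its own TSS and 218 bp from a TSS of MZF1-AS1.

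Among the UBE2L genes the order was UBE2L3, UBE2L5 and UBE2L6 in every replicate. UBE2L5, a close copy of UBE2L3, had a fold enrichment of 33.5, 22.9 and 20.4, and UBE2L6 had 26.3, 15.1 and 14.2. UBE2L3 exceeded UBE2L6 by 1.22 ± 0.21 on the log2 scale (2.32-fold) and UBE2L5 by 0.73 ± 0.12. How reads that fit both UBE2L3 and UBE2L5 were placed was not tested.

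The remaining members lay in the middle and upper range. UBE2B, a human RAD6 enzyme that acts on histone H2B and PCNA, had a fold enrichment of 35.7, 25.6 and 22.3 and a mean percentile of 64.6. UBE2T, the E2 of the Fanconi anaemia pathway, had 32.2, 17.8 and 17.6 and a mean percentile of 44.7 ± 1.6. UBE2Q1 (38.6, 27.8 and 23.2) and UBE2Q2 (40.6, 20.9 and 14.1) kept no order by fold enrichment, but UBE2Q1 was above UBE2Q2 in all 3 replicates by fragments (log2 difference 0.28 ± 0.14), and the third gene of the name, UBE2QL1, had no peak.

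Of the 22 pairs of related enzymes compared, 14 kept the same sign in all 3 replicates with a mean beyond the SD, and 13 of these also kept that sign with fragments in place of fold enrichment. By fragments 18 pairs kept 1 sign, 5 of which had not done so by fold enrichment. No pair passed a test, since 3 replicates allow no exact permutation p below 0.25, which gave 0.393 after adjustment over the 22 pairs. The pairs share genes, so they are not independent.

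**Figure D4:**
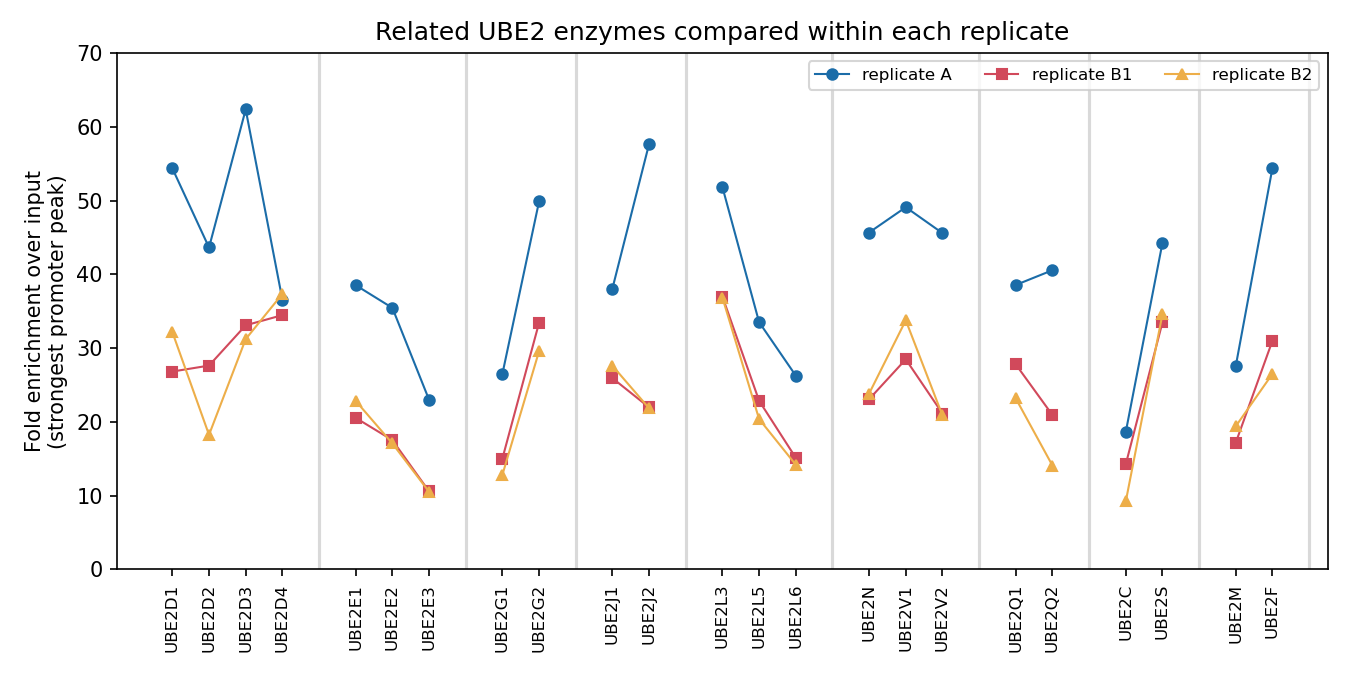
Fold enrichment over input of the strongest PHF8 promoter peak (y axis) for related UBE2 enzymes (x axis, grouped between the grey lines, UBE2M and UBE2F being the enzymes for NEDD8), with a coloured line per replicate. UBE2C lies below UBE2S, UBE2G1 below UBE2G2 and UBE2E3 below UBE2E1 and UBE2E2 in every replicate, and the lines of the UBE2D and UBE2J genes cross.

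The background used for the fold enrichment moved with some of these levels. MACS takes the larger of a genome-wide and a local background, and the commonest background among all peaks was 1.567, 1.932 and 2.044 fragments. At UBE2T it was 2.76, 3.54 and 4.44, the highest of the bound members in both B replicates, and its 120, 80 and 95 fragments put it at a mean percentile of 72.8 by fragments, against 44.7 by fold enrichment. At UBE2D4 the background was 3.35, 2.02 and 2.13. Its percentile was 57.0, 93.7 and 97.7 by fold enrichment and 91.8, 87.7 and 93.9 by fragments. The SD of its percentile over replicates was 22.4 by fold enrichment and 3.2 by fragments.

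UBE2Q2 and UBE2D2 showed the same in B2. Their background there was 3.55 fragments, against 1.57 to 2.25 in the other replicates, and the SD of the percentile was 19.1 and 16.9 by fold enrichment and 3.4 and 5.6 by fragments. The replicates of these genes lay closer together in fragments. Among all bound members the SD was smaller by fragments for 20 and larger for 13, UBE2T (1.6 by fold enrichment and 8.5 by fragments) and UBE2L3 (4.9 and 9.2) among the latter. For UBE2J2 the SD was 19.2 by fold enrichment and 12.3 by fragments.

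Summits lay mostly just downstream of a TSS. For the summit of each strongest peak, the nearest TSS of the same gene lay upstream in 26 of 33 genes in A (78.8%, 95% Wilson interval 62.2 to 89.3) and in 23 in B1 and in B2 (69.7%, 52.7 to 82.6). The intervals cover counting error only. Among other bound genes the share was 65.7%, 65.8% and 66.1%, within the interval of each replicate. The median distance was 81 bp downstream in A, 55 bp in B1 and 70 bp in B2. In A, 4 summits lay in coding exons, 12 in introns, 13 in noncoding or untranslated parts of exons and 4 outside the gene.

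The position was stable across replicates for most members. The 3 summits of a gene spanned a median of 24 bp and at most 50 bp in 25 genes. They were all downstream in 21 genes and all upstream in 6, namely UBE2D3, UBE2E3, UBE2J2, UBE2K, UBE2Q1 and UBE2R2. The summits of UBE2D2, UBE2L6, UBE2M and UBE2W spanned more than 200 bp, and that of UBE2M moved from 152 bp downstream in A to 489 bp upstream in B1.

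**Figure D5:**
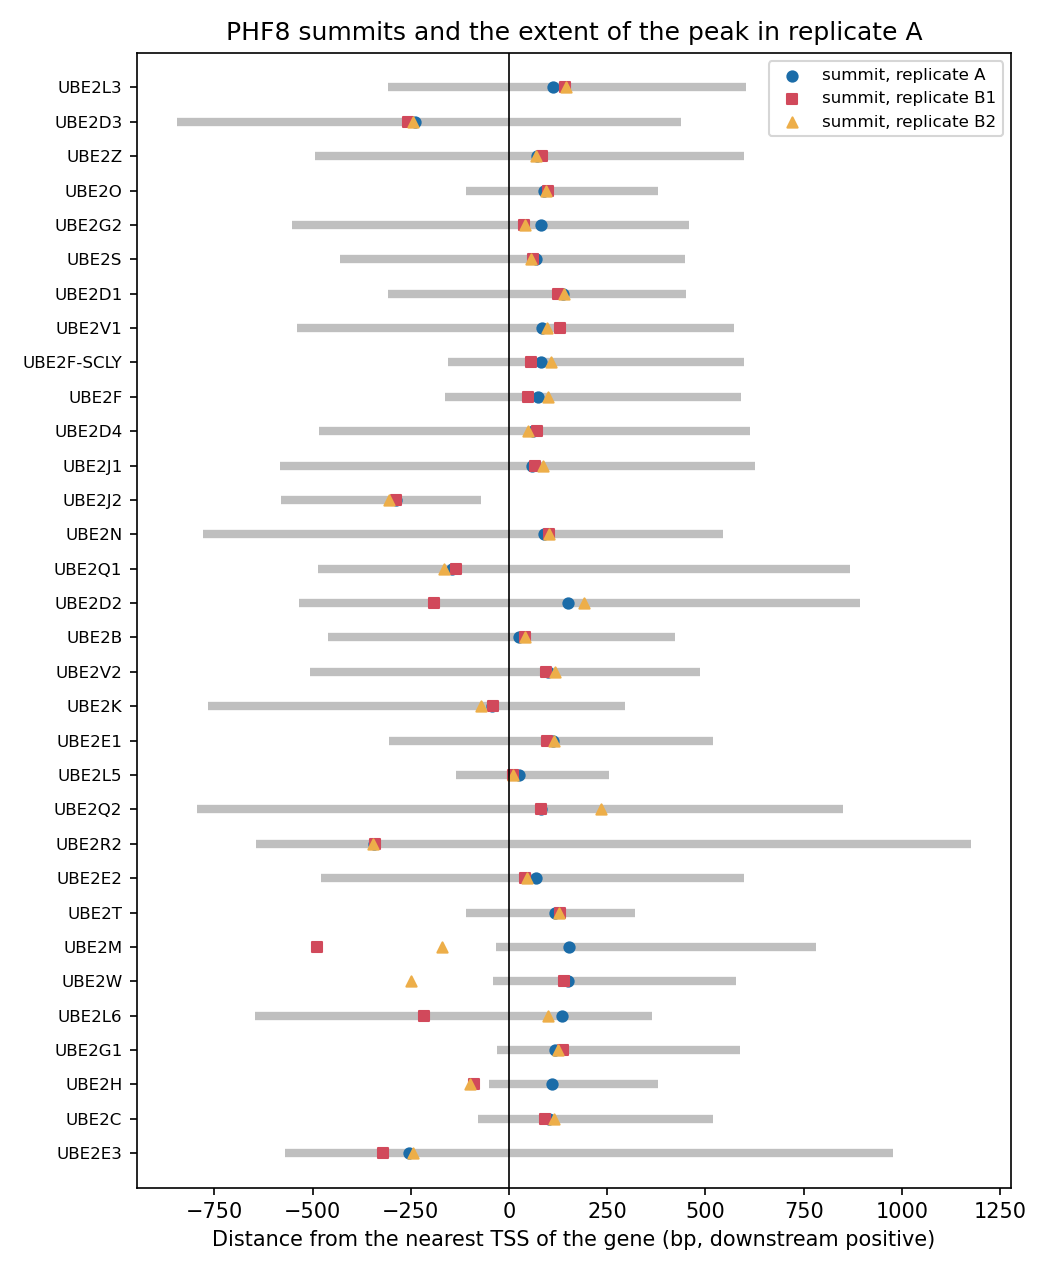
Distance of PHF8 summits from the nearest TSS of the gene (x axis, bp, downstream positive) for 32 of the bound UBE2 genes (y axis, ordered by mean percentile), with a symbol per replicate and a grey bar for the extent of the peak in A. In 21 genes all 3 summits are downstream, in 6 all are upstream, and UBE2D2, UBE2L6, UBE2M and UBE2W have summits more than 200 bp apart.

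Several upstream summits lay towards a neighbouring gene. For 17 members, all bound, another gene started on the opposite strand within 2 kb, and for 16 bound members none did. Such a start was present for 51.5% of the bound members and 54.9% of other bound genes. At UBE2D3 the summit was 239, 257 and 243 bp upstream of UBE2D3 and 81, 99 and 85 bp from a TSS of CISD2, a protein of the outer mitochondrial membrane and endoplasmic reticulum, on the other strand. At UBE2E3 it was 255, 321 and 244 bp upstream and 28, 38 and 39 bp from the divergent transcript UBE2E3-DT. Signal at such starts cannot be told apart between the genes that share the peak. A strongest peak shared with the window of another gene was found for 17 of 33 UBE2 genes (51.5%), against 51.6%, 51.7% and 51.5% of other bound genes.

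The median peak was wider than that of other bound genes in each replicate. Its width was 913 bp in A, 856 bp in B1 and 905 bp in B2, against 833, 734 and 686 bp for other bound genes. The strongest peak exceeded 1 kb in 15, 15 and 10 of 33 genes (45.5%, 45.5% and 30.3%, against 33.9%, 26.6% and 23.7% of other bound genes). At least 2 promoter peaks were present in 15, 17 and 17 genes (45.5%, 51.5% and 51.5%), near the 44.7%, 48.1% and 47.5% of other bound genes.

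Among the bound members the level did not follow base composition. Across the 33 genes, which share libraries and in 1 case a peak, Spearman's rho of the mean percentile was 0.02 with GC content, -0.10 with the CpG ratio and -0.04 with the number of CpGs around the TSS nearest to the summit. It was 0.20 with peak width and 0.03 with the number of TSSs. These are descriptions, given without a test.

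Short motifs were searched on both strands in 301 bp around the summit of each strongest peak in A, in 32 windows for the UBE2 genes and 10030 for all bound autosomal protein-coding genes. The GC box GGGCGGG was present in 17 UBE2 windows (53.1%, against 41.1% of all windows). The core AAGATGGC, bound by YY1, was present in 4 (12.5%, against 5.27%), at UBE2L3, UBE2N, UBE2V1 and UBE2V2. The ETS core CCGGAAGT was present in 2 (6.25%, against 3.13%). CCAAT was present in 2 (6.25%, against 13.5%), at UBE2C and UBE2E3. Within these windows TGACGTCA was found at UBE2H alone, and GCGCATGC and CTCGCGAG at no member. Copies further from the summit were not counted. The stretches printed above hold TGACGTCA before UBE2S and CTCGCGAG before the bound start of UBE2D2, both outside the windows. A match is a description of the letters only.

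Most of the rest of the pathway was bound as well. Of 54 listed autosomal genes of ubiquitin and ubiquitin-like conjugation under other symbols, 51 (94.4%) were bound in all 3 replicates. The share over all autosomal protein-coding genes was 61.0%. Bound were all 4 ubiquitin genes, 8 of 9 activating enzymes and all 8 conjugating enzymes with other symbols. So were 10 of 12 ubiquitin-like modifiers and all 21 ligases and ligase components. All 50 listed genes with a CpG-island-like TSS were bound, against 80.0% of all autosomal protein-coding genes with such a TSS. The exceptions were SUMO4 and UBD (FAT10), which had no peak in any replicate, and UBA7, the activating enzyme for ISG15, which had a peak in A (fold enrichment 3.99) and in B2 (4.32). None of the 3 has a CpG-island-like TSS.

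Levels in the pathway spanned the same range, with a median mean percentile of 67.8. The highest were DCUN1D1, a NEDD8 ligase component (95.7 ± 2.5), MARCHF6, a ligase of the endoplasmic reticulum (95.4 ± 3.3), and BIRC6 and NAE1, both at 94.8. The lowest were RAD18, the PCNA ligase that works with UBE2B (21.7 ± 9.7), UFM1 (26.2) and UFC1 (27.7), a modifier and its E2.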

How the data were processed

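PHF8 ChIP-seq peak lists of 3 SKMEL-147 replicates were analysed. The authors aligned reads with Bowtie2 to the hg19 genome and called narrow peaks of each replicate against input with MACS, as the labels and the study's methods state. The submitters' processing notes also name bcl2fastq and Picard, and read totals and the treatment of duplicate reads are not given in the sources used here. The deposited lists hold a fold enrichment (a linear ratio), p-values and q-values as −log10 values, a score and a summit offset. The deposited score was not used. All peaks had a fold enrichment above 1.5 and q-values under 0.05. The study prints its q cutoff with the opposite direction, and it was read here as an upper limit. No peak ran past an end of a GRCh37 autosome.

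Peaks were assigned to TSSs within 1 kb (Python 3.11.15, pandas 2.3.3, NumPy 2.4.6, SciPy 1.17.1). The strongest promoter peak by fold enrichment represented a gene. Fragments at the summit were solved from fold enrichment and a Poisson p-value, and 100% of peaks gave a whole number within 0.001 of the deposited −log10 p-value. The assignment and this recovery were tested on simulated data. Differences of median log2 fold enrichment were compared over replicates by a sign-flip permutation test, exact and two-sided, which measures only the spread between these samples, and adjusted by Benjamini-Hochberg.

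The members, lists, tests and alternatives were chosen with earlier results of these data known. Values are given for unbound members, the 5 highest and 5 lowest by mean percentile, preset groups of related enzymes and, for other genes of the pathway, the 3 highest, the 3 lowest and those not bound. A further item is not reported here by name and enters the counts only. Other members were named afterwards to account for the rest, as were ANAPC11 and CDC34, chosen after their values were seen. No column of the authors' own comparisons was present, and the label of the cell line cannot be checked by markers in peak lists.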

Additional observations from a re-analysis of the deposited data

How the results depend on the processing

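The count of bound UBE2 genes was 33 under a fold enrichment above 4, q-values below 0.001, windows of 500 bp or of 2 kb around a TSS, summits inside the window, a peak in at least 2 replicates and without each replicate. It was 32 at a fold enrichment above 10, which lost UBE2C (50.8% of all autosomal protein-coding genes were then bound), and 30 with 1 TSS per gene, which lost UBE2D2, UBE2E3 and UBE2L3 (54.8%). The mean share of summits downstream of a TSS rose to 81.1% with 1 TSS per gene. It rose to 87.5% without genes facing a TSS of another gene within 2 kb, and ranged from 69.7% to 74.2% without single replicates. No share of other bound genes is given for these settings, so neither rise can be read as particular to the UBE2 genes. The difference from other bound genes was between 0.09 and 0.25 on the log2 scale in every setting. The differences from proteasome and TRIM genes were run under the same settings after seeing the data, and the latter reversed to -0.06 at a fold enrichment above 10; the cause was not tested. Of the mean percentiles, 29 of 359 recomputed values moved by more than the spread of replicates, 11 of them at a fold enrichment above 10 and 16 with fragments. UBE2V1 fell to 8.2 with 1 TSS per gene. No paired analysis was possible because there is 1 group of ChIP samples. Counts at a summit limit precision, a peak list gives no level where no peak was called, and 3 replicates allow no p below 0.25.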
